A study of Homo sapiens with 8 samples.

Results

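Peaks of open chromatin that lost at least 50% of their signal under sorbitol, and that lie away from the ends of genes, are described here. Signal was expressed as CPM, a peak's count divided by the library total and scaled to 1000000. Peaks were chosen by the measured CPM values and by position. A peak was taken when it lay on an autosome and more than 1 kb from both ends of every RefSeq gene (GRCh38.p14), when all 4 sorbitol libraries were below all 4 vehicle libraries, and when the mean sorbitol CPM was at most 0.5 of the mean vehicle CPM. This choice took 421 peaks, 0.42% of the 100339 autosomal peaks away from gene ends, out of 124687 autosomal peaks and 129536 in the table. Non-overlap alone, without the fold, was met downwards by 5822 peaks away from gene ends (5.8%). Since the same libraries chose the 421 peaks, their own decrease is given as a description and carries no test.

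The assay was Omni-ATAC-seq, in which a transposase cuts accessible DNA in isolated nuclei and the cut sites are sequenced. The cells were HEK293, an established human embryonic kidney line; the genotype field gives eGFP-YAP, a fluorescently tagged YAP, while the titles name HEK293 only. Both groups carry this genotype, and the series description states serum starvation for 1 h before treatment. The vehicle group has 4 libraries and the sorbitol group has 4 libraries from cells kept in 0.2 M sorbitol for 1 h, each from 50000 cells. The labels put vehicle at 0 h and sorbitol at 1 h, so sorbitol cannot be told apart from time. Nothing in the labels says that the libraries of a group came from separate cultures, so p-values measure the spread between these libraries, which may be technical. Whether the line is a single clone is not given in the sources used here. Of 6 genes of kidney development, 5 had a peak at a gene end, from EYA1 at 2.11 CPM to SALL1 at 51.4 CPM in vehicle. PAX2 had none, and the median over all 6, with PAX2 taken as 0, was 21.5 CPM. Of 9 genes that mark blood, liver, heart and neural cells, 2 had such a peak. The highest of these was SNAP25 at 5.12 CPM, above EYA1. Library totals ran from 11522266 to 19831471 counts.

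Accessible sites away from gene ends comprise enhancers, insulators, alternative promoters and regions where transcription runs on beyond the annotated gene. Hyperosmotic medium shrinks cells and crowds the nucleus, and in human cells it is known to alter transcription termination so that polymerase continues past gene ends. YAP is a transcriptional coactivator that acts through TEAD factors, often at distal enhancers.

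Few of the 421 peaks fell on a known transcript start, and those that did were mostly at zinc finger genes. RefSeq start windows of alternative transcripts, which lie inside the annotated gene, overlapped 7 of the 421 peaks (1.66%), against 1430 of all peaks away from gene ends (1.43%). Of these 7, 5 belong to KRAB-type or other C2H2 zinc finger genes on chromosome 19, a family of mostly repressive DNA-binding proteins, namely ZNF790, ZNF227, ZNF331 and ZNF875 with 2 starts. The other 2 belong to ASIC2, an acid-sensing ion channel subunit, and DRD3, a dopamine receptor. The 250 bases before each of the 5 zinc finger starts lie wholly within the peaks and are shown because 4 of them share a stretch of letters, which the first ZNF875 start lacks. They are RefSeq sequence of GRCh38.p14, read 5′ to 3′ on the strand of the gene, and capitals mark matches of the letters ANTACNNTNCCCAGA on either strand.
ZNF790 (chr19:36838388-36838637, minus strand): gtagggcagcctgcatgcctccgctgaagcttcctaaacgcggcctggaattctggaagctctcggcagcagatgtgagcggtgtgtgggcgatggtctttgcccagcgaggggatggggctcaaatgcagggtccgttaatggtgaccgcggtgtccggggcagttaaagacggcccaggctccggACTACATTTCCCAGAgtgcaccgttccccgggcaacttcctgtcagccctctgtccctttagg
ZNF875, first start (chr19:37317632-37317881, plus strand): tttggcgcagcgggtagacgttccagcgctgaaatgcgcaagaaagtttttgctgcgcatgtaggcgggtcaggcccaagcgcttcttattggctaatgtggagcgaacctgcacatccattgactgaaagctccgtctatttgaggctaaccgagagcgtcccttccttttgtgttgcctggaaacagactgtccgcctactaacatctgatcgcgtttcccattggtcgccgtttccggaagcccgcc
ZNF875, later start (chr19:37334374-37334623, plus strand): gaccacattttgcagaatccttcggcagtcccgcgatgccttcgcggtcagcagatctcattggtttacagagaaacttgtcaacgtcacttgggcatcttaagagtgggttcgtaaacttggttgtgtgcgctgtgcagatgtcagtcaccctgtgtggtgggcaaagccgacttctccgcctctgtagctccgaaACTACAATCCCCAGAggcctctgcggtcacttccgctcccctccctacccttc
ZNF227 (chr19:44212282-44212531, plus strand): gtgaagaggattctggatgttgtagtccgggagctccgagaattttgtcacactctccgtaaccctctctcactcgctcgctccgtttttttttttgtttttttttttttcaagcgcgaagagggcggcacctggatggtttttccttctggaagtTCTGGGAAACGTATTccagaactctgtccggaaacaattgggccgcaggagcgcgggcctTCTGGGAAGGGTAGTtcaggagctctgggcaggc
ZNF331 (chr19:53520764-53521013, plus strand): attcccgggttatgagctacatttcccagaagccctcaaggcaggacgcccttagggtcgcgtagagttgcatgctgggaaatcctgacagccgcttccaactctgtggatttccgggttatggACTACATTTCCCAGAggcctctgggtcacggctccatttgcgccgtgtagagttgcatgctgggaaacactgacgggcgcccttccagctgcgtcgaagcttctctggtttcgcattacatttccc

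These letters were derived from the 7 windows themselves, so their count there describes the choice. The longest word shared by windows of 2 different genes, counting both strands, was GGACTACATTTCCCAGAG, 18 letters found at ZNF790 and ZNF331. The best-fitting stretch was then taken from each other window with at most 5 mismatches to that word, which kept the later ZNF875 start and ZNF227, and positions at which the 4 stretches differ were set to N. As background, the shared word resembles the sequence bound by the zinc finger activator ZNF143. Over the 35116 start windows in RefSeq, 131 hold ANTACNNTNCCCAGA (0.373%), with 43 of 307 windows of ZNF genes on chromosome 19 (14.0%), 12 of 340 windows of ZNF genes elsewhere (3.53%) and 76 of 34469 windows of other genes (0.221%). A match describes letters and is not a binding site.

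Peaks outside the 421 could be read against these letters, since they had no part in deriving them. Here and below a peak is called lower or higher when its Benjamini-Hochberg adjusted p in edgeR's quasi-likelihood test, fitted to all 129487 tested peaks, was under 0.05. At gene ends, 33.1% of 24345 tested autosomal peaks were lower and 8.75% higher. Gene-end peaks that overlapped a start window with the letters were lower in 72 of 92 cases (78.3%), at a median log2 fold change (sorbitol minus vehicle) of −0.46. Those at start windows without the letters were lower in 4626 of 10709 cases (43.2%), at a median of −0.20. At genes other than ZNF genes the shares were 66.7% of 54 and 42.2% of 10415, while at ZNF genes on chromosome 19 they were 96.6% of 29 and 93.1% of 130. On chromosome 19 the ZNF gene ends were thus lower in nearly all cases with or without the letters. The share over all gene ends of chromosome 19 was not set beside these, so the part of the chromosome was not tested. Median vehicle signal was 31.0 CPM with the letters and 27.7 CPM without, and the part of signal strength in the difference was not tested. Under other scalings of the libraries the share with the letters ran from 64.1% to 79.3% and the share without from 28.0% to 44.5%.

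Away from gene ends, peaks at start windows of ZNF genes on chromosome 19 were mostly lower even without those that met the choice. Of the 15 such peaks 13 were lower and the median log2 fold change was −0.57; with library totals alone 9 of the 15 were lower, at −0.48. At start windows of ZNF genes on other chromosomes 7 of 22 peaks were lower (31.8%) and 13.6% higher, at a median of −0.19. Among peaks at start windows of other genes, 25.6% of 1388 were lower and 11.02% higher, at a median of −0.09. Over all tested peaks away from gene ends 8.34% were lower, 18% were higher and the median was 0.07. On chromosome 19 alone, 38.4% of 1945 such peaks were lower and 3.70% higher. The first ZNF875 start gave 21.1, 21.6, 19.6 and 17.96 CPM in vehicle libraries 1 to 4 and 8.59, 10.8, 8.76 and 9.26 CPM in sorbitol libraries 1 to 4. Its later start gave 4.27, 3.74, 4.24 and 5.56 CPM against 2.17, 2.15, 1.30 and 3.20 CPM. ZNF227 read 14.2, 15.6, 16.1 and 13.8 CPM in vehicle and 9.46, 8.20, 5.03 and 6.34 CPM in sorbitol. The sorbitol libraries of ZNF227 spread more widely than the vehicle libraries, and both ZNF875 starts are the only peaks away from gene ends inside that gene, 2 of 2.

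Other short motifs were searched on both strands of the same 250 bases. The ETS letters CCGGAAG stood in 1 of the 7 windows, at the first ZNF875 start, against 6.47% of 1422 windows in peaks away from gene ends and 8.52% of all windows. AP-1 letters TGANTCA, TEAD letters GGAATG and E-box letters CACGTG stood in none of the 7. In windows of all peaks away from gene ends these occurred at 7.67%, 10.8% and 5.70%, so that none in 7 says little. No genome sequence was used, and sequences of peaks outside start windows were not analysed here.

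Over all 421 peaks, signal was modest and the loss mostly just past the chosen fold. The peaks held 0.332%, 0.330%, 0.338% and 0.311% of all counts in the vehicle libraries and 0.152%, 0.150%, 0.149% and 0.151% in the sorbitol libraries. Vehicle libraries 1 and 2 share a first number in their library names, as do 3 and 4, and the same holds for sorbitol; the decrease was similar in both pairs of libraries. The median peak had 2.99 CPM in vehicle (range 0.889 to 272.8), against 2.43 CPM over all peaks away from gene ends, and was 351 bp wide (range 200 to 2864), against 379 bp. The ratio of sorbitol to vehicle had a median of 0.456 and ran from 0.255 to 0.500. In edgeR 420 of the 421 were tested, 1 having been removed for low counts, and all 420 were lower at least 2-fold, as were 771 of the 100297 tested peaks away from gene ends (0.769%). Their median log2 fold change was −1.21, which the choice fixes. Counts were low for many: 284 of the 421 (67.5%) had a mean below 50 counts over the 8 libraries, and 1 peak had no count in a sorbitol library.

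Just inside the limit lay chr9:83583185 with a ratio of 0.500, chr12:124273578 with 0.499 and chr17:68048369 with 0.498 (peaks named by their starts). Just outside lay chr11:62891105 with 0.5000, chr19:47707200 with 0.5002 and chr10:9342887 with 0.5003.

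The strongest signal came from 5 near-identical peaks on the short arm of chromosome 21. They lie at chr21:5601619-5604437 near LINC03104, chr21:6216513-6219357 near LOC102724701, chr21:7096843-7099662 near LOC102724843, chr21:7478591-7481454 near LINC03105 and chr21:7656944-7659799 inside the pseudogene CTBP2P9. The first gave 283, 262, 297 and 249.4 CPM in the vehicle libraries and 123, 129, 133 and 132 CPM in the sorbitol libraries. Means of the 5 ran from 268.4 to 272.8 CPM in vehicle and from 127.7 to 131.1 CPM in sorbitol, with ratios from 0.473 to 0.483. Within a library the highest and lowest of the 5 counts differed by 3.88% to 9.47% of their mean. Counting error alone has an SD of 1.31% to 2.64%. A range is a wider measure than an SD, so the spread was not tested against counting error. Peaks this alike in every library may share reads, and how reads that fit several places were assigned is not given in the sources used here, so they count as 1 uncertain locus. Together they made up 41.2% of the summed vehicle CPM of the 421 peaks. Without them the peaks held 0.193% ± 0.00552 (SD, n = 4) of vehicle counts and 0.0861% ± 0.00248 (SD, n = 4) of sorbitol counts.

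Next in strength were single sites within or just outside protein-coding and non-coding genes. The peak chr4:1045830-1046978, inside the non-coding gene LOC105374343, gave 60.3, 58.9, 57.4 and 54.3 CPM in vehicle and 25.3, 27.0, 25.5 and 24.2 CPM in sorbitol. Inside FBXL19, an F-box protein that binds CpG islands, chr16:30927850-30928519 gave 34.4, 36.4, 34.1 and 32.0 CPM against 17.9, 17.1, 15.6 and 13.4 CPM. Inside MARK4, a kinase that acts on microtubule-associated proteins, chr19:45300439-45301110 gave 31.9, 37.9, 31.2 and 29.3 CPM against 16.4, 14.9, 15.8 and 13.7 CPM. The libraries of a group lay close together at all 3, and the gap between groups is required by the choice. A peak 3214 bp beyond the end of CYP1A2, a xenobiotic-metabolising cytochrome P450, at chr15:74759821-74760845, gave 28.5, 30.5, 29.5 and 27.6 CPM against 12.4, 12.2, 13.9 and 11.2 CPM. Beyond the end of WDR4, a subunit of a tRNA methyltransferase, 2 adjoining peaks 100 bp apart lay at chr21:42832765-42835053. The stronger of them gave 22.7, 25.8, 30.0 and 28.3 CPM against 12.7, 11.2, 10.1 and 8.57 CPM, the libraries within each group spreading further than at CYP1A2.

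**Figure D1:**
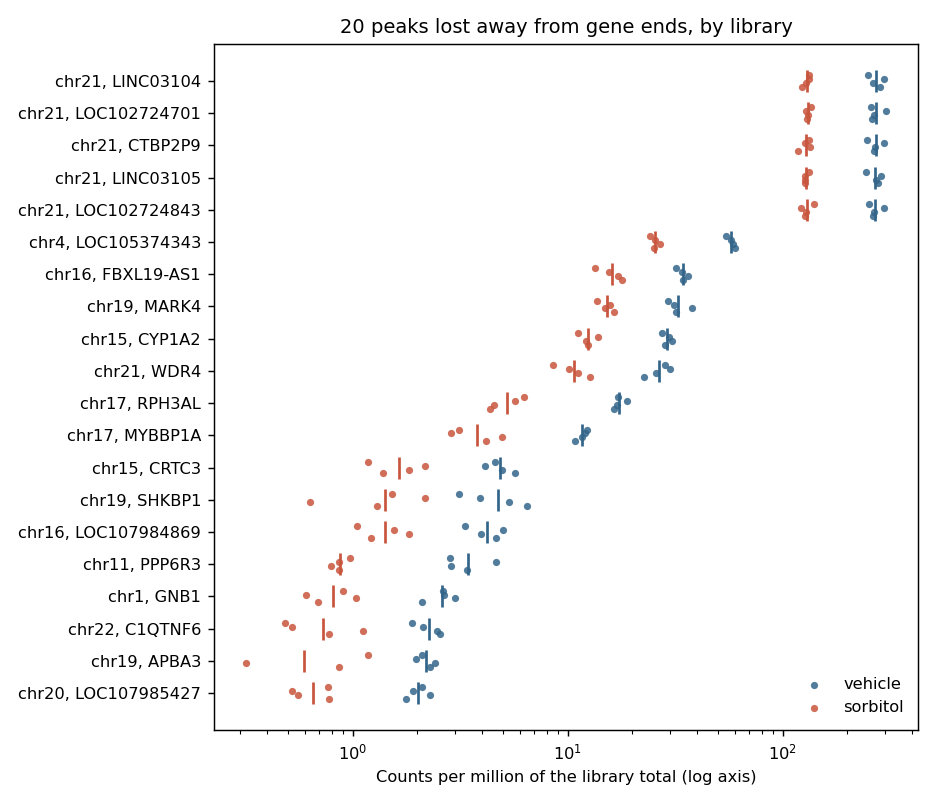
CPM (log axis) in each of the 8 libraries for the 10 peaks with the highest vehicle mean and the 10 with the lowest ratio among those with at least 2 CPM in vehicle, labelled by chromosome and nearest gene; dots are libraries, vertical ticks are group means, and 1 sorbitol value of 0 (chr19, APBA3) cannot be drawn. The 5 chromosome 21 copies stand together at the top, near 270 CPM in vehicle, and the 4 sorbitol libraries lie left of the 4 vehicle libraries in every row, which the choice requires.

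The largest relative losses were at weaker sites. At chr11:68632838-68633180, 17504 bp beyond the end of PPP6R3, a regulatory subunit of protein phosphatase 6, vehicle libraries gave 3.42, 2.87, 4.64 and 2.85 CPM and sorbitol libraries 0.868, 0.796, 0.867 and 0.975 CPM, a ratio of 0.255. Inside RPH3AL, a regulator of exocytosis, chr17:215811-216394 gave 16.5, 16.9, 18.9 and 17.2 CPM against 4.34, 4.54, 5.72 and 6.27 CPM, a ratio of 0.3003. It is the strongest of the 10 peaks with the lowest ratios, at a log2 fold change of −1.81 (SE 0.13). Inside SPNS2, a sphingosine-1-phosphate transporter, and 4086 bp beyond the end of MYBBP1A, a nucleolar protein, chr17:4534090-4534818 gave 10.8, 11.7, 12.0 and 12.3 CPM against 4.17, 4.94, 2.86 and 3.13 CPM. The remaining 7 had vehicle means from 2.02 to 4.85 CPM and ratios from 0.270 to 0.339. They lie inside TJP3 (a tight junction protein), SHKBP1, GNB1 (a G protein beta subunit), C1QTNF6, LOC105372666 and LOC107984869, and 7330 bp upstream of CRTC3, a CREB coactivator.

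Of the 421 peaks, 42 lay within 5 kb beyond the 3′ end of a nearest gene with known strand. Among the 93 whose nearest gene within 5 kb is protein-coding with a known strand, 36 (38.7%) were downstream of the end, against 28.4% of 7303 peaks away from gene ends placed the same way. Upstream of the start lay 12 (12.9%, against 17.6%), inside near the start 22 (23.7%, against 28.1%) and inside near the end 23 (24.7%, against 25.9%). Proximity itself was marked: 83 of the 421 (19.7%) were 1 to 2 kb from a gene end, against 7.10% of all peaks away from gene ends, and 6 (1.43%, against 6.65%) were over 100 kb away. The median distance was 6753 bp, against 14400 bp. Position was not a criterion beyond the 1 kb limit, and these shares come with no test since neighbouring peaks are not independent.

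Ribosomal protein genes supplied 13 of the 421 peaks by host or nearest gene, 12.7% of their 102 peaks away from gene ends, where the share over all such peaks is 0.42%. Chromosome 19, which has the highest share of any autosome at 3.29%, held 4 of the 13 and 17 of the 102. This family was added to the gene groups after the data had been seen. With strand known, 8 of the 13 were beyond the gene's end and 2 were inside before it, and for 3 the strand was not given. RPSA, a small-subunit protein also known as the laminin receptor, had 2 peaks 372 bp apart beyond its end. The stronger, chr3:39415184-39416490, gave 25.2, 25.6, 27.8 and 25.8 CPM in vehicle and 11.9, 10.9, 14.0 and 10.4 CPM in sorbitol, and the weaker, chr3:39414083-39414811, gave 13.7, 11.2, 15.03 and 13.96 CPM against 6.68, 6.13, 5.03 and 6.27 CPM. At its start the RPSA peak gave 38.7, 41.4, 40.4 and 36.5 CPM against 42.1, 42.5, 49.0 and 48.7 CPM, a log2 fold change of 0.13 (SE 0.08, edgeR adjusted p = 0.243). The 3′ peaks could not overlap between groups, by the choice, and the start peak did not pass the test.

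RPS10, a small-subunit protein, had a lost peak 1226 bp beyond its end at chr6:34415283-34416228 with 8.34, 8.16, 7.51 and 5.96 CPM against 3.21, 3.504, 2.77 and 2.30 CPM. RPL22L1, a paralog of a large-subunit protein, had one 1258 bp beyond its end at chr3:170862726-170863617 with 7.03, 7.88, 5.40 and 6.10 CPM against 2.52, 3.42, 2.60 and 2.65 CPM. In both the highest sorbitol library stayed below 4 CPM and below the lowest vehicle library, as the choice requires. Others were at RPL36, RPL32, RPS19, RPS23, RPS9, RPL37A, RPS3 and RPL34, with 1 each, at vehicle means from 1.90 to 5.95 CPM and ratios from 0.342 to 0.481.

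The start peaks of these genes had no part in the choice, whereas the lost peaks had to be at least 2-fold lower, so no difference between them is read here. The start peaks of RPS10, RPL22L1 and RPS23 had log2 fold changes of 0.03 (SE 0.11), 0.03 (SE 0.08) and 0.02 (SE 0.09), and RPL32 had 0.19 (SE 0.09), none past the edgeR threshold (adjusted p from 0.122 to 0.898). RPL34 and RPL37A were higher at the start, by 0.60 (edgeR adjusted p = 1.2e-06) and 0.33 (edgeR adjusted p = 0.00411). RPS9 was lower at the start by edgeR, at −0.49 (adjusted p = 9.1e-05), and RPL36 had start peaks at −0.81 and −0.30 (edgeR adjusted p = 0.000104 and 0.0356). Across scalings these signs did not change, though RPSA and RPL32 passed the threshold upwards with library totals alone (edgeR adjusted p = 0.0294 and 0.0152) and with the loess offset, RPL22L1 passed it upwards with the loess offset (edgeR adjusted p = 0.0226), and the weaker RPL36 start lost its call (largest adjusted p 0.159). Peaks at the gene ends themselves fell in edgeR at RPL32 (−1.39), RPL22L1 (−1.22), RPS9 (−0.97) and RPS23 (−0.76).

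**Figure D2:**
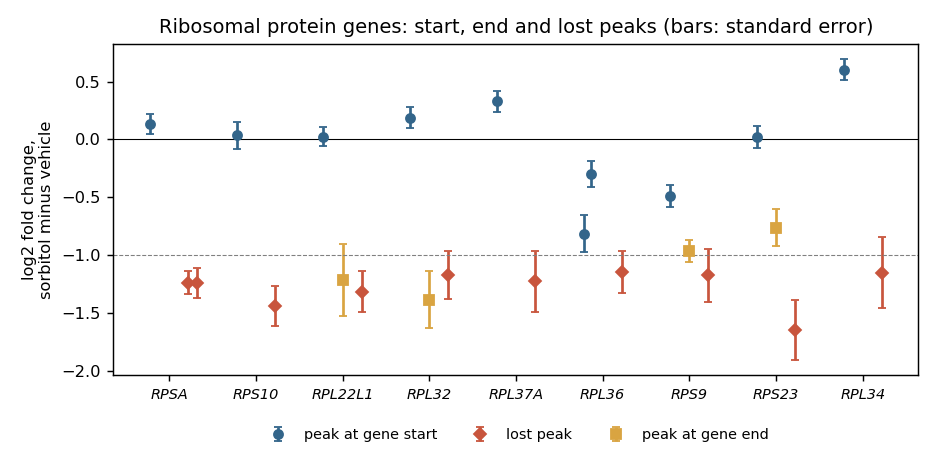
Log2 fold change (sorbitol minus vehicle, edgeR) with standard error for 9 ribosomal protein genes: peaks at the gene start (circles), at the gene end where one exists (squares) and the lost peak away from the ends (diamonds); the dashed line marks 2-fold. Lost peaks lie below −1, which their choice requires, while 7 of the 9 genes have a start peak at or above 0.02.

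A comparison without the chosen peaks took all 65 ribosomal protein genes with known strand. At their starts 28 of 67 peaks were lower in edgeR (41.8%, median −0.19), at their ends 23 of 26 (88.5%, median −0.72) and 1 to 5 kb downstream 15 of 25 (60%, median −0.52). Over all 15101 protein-coding genes with known strand the shares were 42.4% of 10395 at starts, 31.4% of 1967 at ends and 20.7% of 2038 downstream without the chosen peaks, with medians of −0.21, −0.22 and −0.16. The ribosomal group was added after the data had been seen, and some of its end and downstream peaks lie near peaks picked for loss. Gene-end peaks within 2 kb of any lost peak were lower in 82.9% of 41 cases. The shares over all genes are thus not a like comparison, and a loss apart from the choice was not tested. Higher calls at starts made up 11.9% in the ribosomal group and 6.32% over all genes. End peaks of the ribosomal group were stronger, at a median of 12.4 CPM in vehicle against 4.13 CPM for all ends, and the part of signal strength in the share of calls was not tested. With an abundance-dependent offset the start median of the ribosomal group was −0.02, with 25.4% lower and 25.4% higher, whereas the end and downstream medians were −0.63 and −0.54.

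In all, 34 protein-coding genes had a chosen peak within 5 kb beyond their end, among them RPSA, RPS10, RPL22L1, RPL32, RPS9, RPL37A and CYP1A2, described above. The genes given next were picked after their values had been seen, and the 34 also hold genes as unlike them as NODAL, a developmental signalling ligand, CNTF, a neurotrophic cytokine, and TRAF6, an immune signalling adaptor. HSPD1, the mitochondrial chaperonin, had 2 peaks 69 bp apart at chr2:197483963-197485324. They gave 6.04, 6.90, 5.50 and 6.84 CPM in vehicle and 2.08, 2.47, 2.86 and 2.93 CPM in sorbitol, and 6.57, 5.29, 6.05 and 5.42 CPM against 2.26, 1.83, 3.64 and 2.02 CPM. SRM (spermidine synthase) had 9.47 ± 0.690 CPM in vehicle and 4.41 ± 0.650 CPM in sorbitol (SD, n = 4), and TRA2B (a splicing regulator) had 8.49 ± 1.01 and 3.71 ± 0.646 CPM. EIF3C (a translation initiation factor subunit) had 8.34 ± 0.532 and 3.43 ± 0.693 CPM, and ENO1 (the glycolytic enolase) had 4.58 ± 0.871 and 2.24 ± 0.119 CPM. MAU2, the partner of NIPBL in loading cohesin, had a peak 2222 bp beyond its end at chr19:19360976-19361537 with 10.8, 10.7, 11.3 and 10.2 CPM against 5.03, 5.34, 3.99 and 4.88 CPM. At the starts of the 34 genes, ribosomal protein genes included, 16 of 34 peaks were lower in edgeR (47.1%) and 1 was higher, at a median of −0.29. At their ends all 10 peaks were lower, at a median of −1.04, against 31.4% of end peaks of all protein-coding genes. These genes were taken because a chosen peak lies within 5 kb beyond that same end, so their end peaks lie near peaks picked for loss. Gene-end peaks within 2 kb of any lost peak were lower in 82.9% of 41 cases, and those at 2 to 5 kb in 76.1% of 46. The 31.4% is thus not a like comparison, and a loss at these ends apart from the choice was not tested.

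Chromosomes differed widely. Chromosome 19, the most gene-dense, held 64 of the 421 peaks (15.2%) but 1.94% of peaks away from gene ends, so that 3.29% of its peaks met the choice. Chromosome 17 held 45 (1.67% of its peaks), chromosome 22 held 22 (1.38%), chromosome 21 held 16 (1.16%, with the 5 near-identical copies counted as 5), chromosome 20 held 21 (1.12%) and chromosome 16 held 23 (1.04%). At the other end, chromosome 6 held 7 (0.0868%) and chromosome 13 held 5 (0.0906%). The share of tested peaks away from gene ends called lower by edgeR followed a like pattern, at 38.4% on chromosome 19, 24% on chromosome 17 and 25.7% on chromosome 22, against 4.03% on chromosome 6 and 2.23% on chromosome 13. Peaks lost at gene ends, 215 of 24348 (0.883%), were more concentrated still, with 69 (32.1%) on chromosome 19. The difference between chromosomes has no test here, since peaks of 1 chromosome share its composition and domains.

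**Figure D3:**
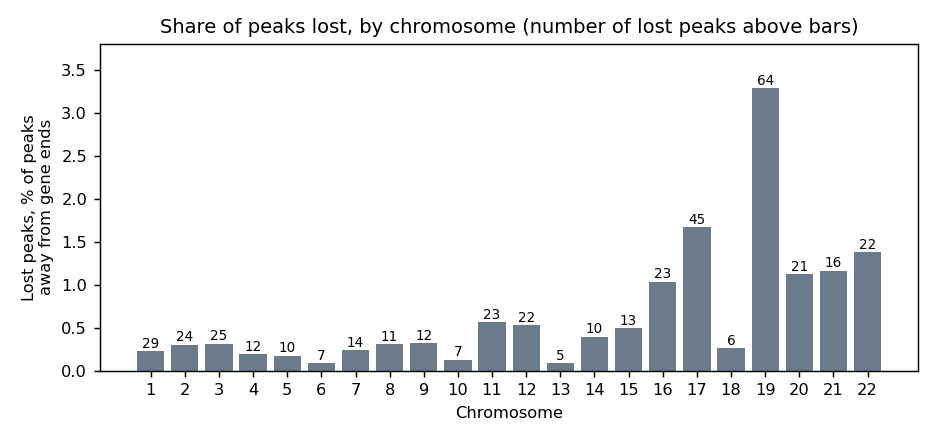
Percent of autosomal peaks away from gene ends that were lost (bars, from 0), by chromosome, with the number of lost peaks above each bar. Chromosome 19 reaches 3.29%, and chromosomes 6 and 13 stay below 0.1%.

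The lost peaks were no more often inside genes than other peaks, but their hosts were shorter. Inside a gene lay 266 of the 421 (63.2%), against 63.7% of all peaks away from gene ends, with 213 in protein-coding genes and 44 in lncRNA genes. Host length had a median of 51400 bp, against 146400 bp. The nearest gene was protein-coding for 226 (53.7%, against 37.7%), a lncRNA for 111 (26.4%, against 35.7%) and a pseudogene for 58 (13.8%, against 20.2%). The 421 peaks had 411 distinct nearest genes. Besides ZNF875, genes that hosted 2 were RHOA (2 of 4), the small GTPase that controls actin stress fibres, ZNF664-RFLNA (2 of 17), IGH (2 of 23), the immunoglobulin heavy chain locus, and PTPRR (2 of 14), a receptor-type tyrosine phosphatase. In RHOA the pair gave 7.23, 4.66, 5.85 and 6.71 CPM against 2.78, 2.71, 3.47 and 3.00 CPM, and 6.04, 6.15, 5.04 and 5.56 CPM against 2.52, 3.19, 2.17 and 3.20 CPM. These 2 sites, 10088 bp apart inside the gene, were alike in level and in loss.

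At stress and YAP gene groups the counts of lost peaks were too small to set apart from the 0.42% over all peaks away from gene ends. None of 93 peaks away from gene ends at osmotic stress genes, of 50 at immediate early genes, of 173 at kidney developmental transcription factor genes or of 157 at actin cytoskeleton genes met the choice. YAP target genes had 1 of 256, inside AXL, a receptor tyrosine kinase, at chr19:41249787-41249987, with 1.58, 1.44, 0.908 and 1.02 CPM against 0.694, 0.239, 0.433 and 0.279 CPM. Of the 256, edgeR called 73 higher (28.5%, against 18% over all peaks away from gene ends) and 2 lower. This was not particular to YAP targets. Higher calls made up 28% at immediate early genes, 26.6% at kidney developmental genes, 21.5% at osmotic stress genes and 20% at CTCF and cohesin genes. Actin cytoskeleton genes had 15.9% and YAP and Hippo pathway genes 14.95%. YAP and Hippo pathway genes had 1 of 214, inside TEAD2, a DNA-binding partner of YAP, at chr19:49347777-49348160, with 3.35, 4.48, 3.33 and 3.59 CPM against 1.39, 1.83, 1.82 and 1.46 CPM. CTCF and cohesin genes had 1 of 80, the MAU2 peak. The AXL peak had only 8, 3, 5 and 4 counts in the sorbitol libraries. Against the same 0.42%, ZNF genes had 16 of 704 peaks (2.27%). Of these 16, 11 were among the 91 ZNF peaks on chromosome 19, where 3.29% of all peaks away from gene ends met the choice. The rest were among the 613 ZNF peaks on other chromosomes. How far the pooled share goes with chromosome 19 or with ZNF genes was not tested. SLC transporter genes had 5 of 1382 (0.362%), HOX genes 1 of 52 and KCN channel genes 1 of 475 (0.211%). PCDH, SOX, FOX, COL and OR genes had none among 86 to 358 peaks each, too few to set apart from the overall share.

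Most lost peaks had no other lost peak within 50 kb. With members linked when less than 50 kb apart, 38 of the 421 (9.03%) had another within reach, all in 19 pairs. By the same measure 23.3% of the 215 peaks lost at gene ends, 50.6% of 4612 peaks gained inside genes and 41.3% of 2051 peaks gained between genes were in clusters. These sets differ in number, which raises linkage by itself. No share was computed for 421 peaks drawn from all peaks away from gene ends. Whether 9.03% is low or high for that number was therefore not tested. The closest pairs were those beyond HSPD1, WDR4 and RPSA, then a pair at RPL23AP88 664 bp apart. SUGP2, a splicing-related protein, had one peak inside it, chr19:18995703-18996214, with 10.3 ± 1.09 CPM against 4.53 ± 1.18 CPM (SD, n = 4), and one beyond its end, chr19:18986660-18987172, with 7.92 ± 0.816 against 3.87 ± 0.648 CPM. Within 50 kb of a lost gene-end peak lay 21 of the 421 (4.99%), against 0.681% of all peaks away from gene ends.

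The surroundings of the lost peaks were lower too, although most neighbours did not reach the fold. Among peaks away from gene ends and within 2 kb of a lost peak, the lost ones excluded, 27 of 76 were lower in edgeR (35.5%, median log2 fold change −0.31). At 2 to 5 kb 20 of 60 were lower (33.3%, median −0.27) and at 5 to 10 kb 60 of 163 (36.8%, median −0.28), so that there was no steady decline within 10 kb. At 20 to 50 kb 222 of 992 were lower (22.4%, median −0.23), at 100 to 200 kb 500 of 2770 (18.1%, median −0.16) and beyond 200 kb 6690 of 93914 (7.12%, median 0.08). Gene-end peaks within 2 kb were lower in 34 of 41 cases (82.9%, median −0.57), and those beyond 200 kb in 30.5% of cases (median −0.15). Without chromosome 19 the shares away from gene ends were 32.8% within 2 kb and 6.82% beyond 200 kb, and the lowest median was at 5 to 10 kb (−0.24, against −0.22 within 2 kb). Peaks at the ends of the genes nearest to the lost peaks were lower in 185 of 323 cases (57.3%) and higher in 15, at a median of −0.38, where all gene-end peaks have 33.1% and −0.17.

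**Figure D4:**
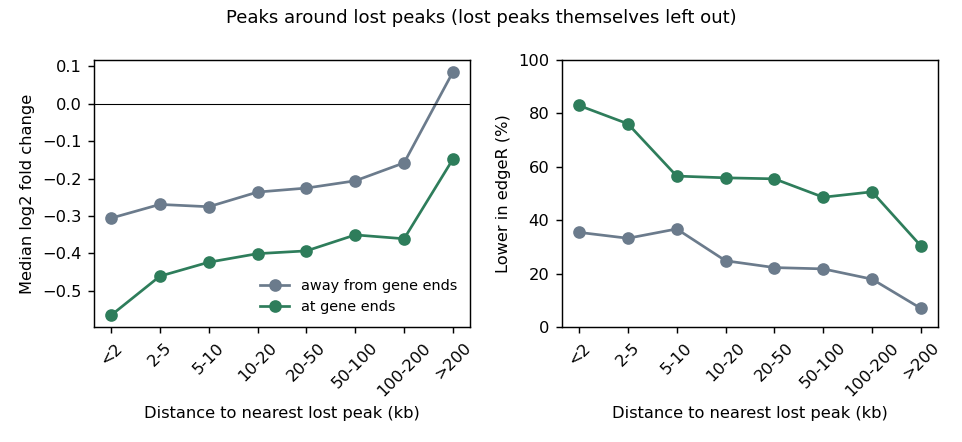
Median log2 fold change (left) and percent called lower by edgeR (right, from 0 to 100) of peaks that were not lost, by distance to the nearest lost peak in kb, for peaks away from gene ends (grey) and at gene ends (green). Medians are −0.31 and −0.57 within 2 kb and 0.08 and −0.15 beyond 200 kb; the percent lower away from gene ends is highest at 5 to 10 kb, at 36.8%.

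To read the loss in libraries that had no part in the choice, the choice was made from 6 libraries and the remaining pair, 1 vehicle and 1 sorbitol library of the same number, was read afterwards. Without replicate 1 the 6 libraries chose 725 peaks with a median ratio of 0.454, which was 0.647 in the left-out pair, with 79.3% lower and 27.3% at or below 0.5. Without replicate 4 they chose 578, with 0.567 in the left-out pair, 90.8% lower and 36.2% at or below 0.5. Replicates 2 and 3 gave 0.616 and 0.639, with 85.2% and 81.8% lower. All peaks away from gene ends had median ratios from 1.06 to 1.16 in the same pairs, with 36.1% to 44.8% lower. The peaks chosen from 6 libraries were thus mostly lower in the unused pair as well, by less than in the libraries that chose them. Many of them did not meet the choice made from all libraries. Those that did were 343 of 725, 338 of 655, 346 of 718 and 354 of 578, without replicates 1 to 4 in turn. The left-out ratios therefore describe these wider sets, and were not computed for the lost peaks alone. The left-out libraries may also be technical repeats of those that chose.

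**Figure D5:**
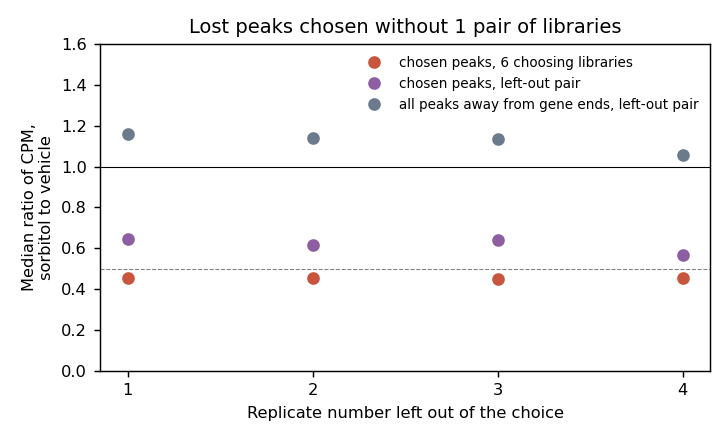
Median ratio of sorbitol to vehicle CPM (from 0) for peaks chosen without 1 replicate number, in the 6 choosing libraries (red) and in the left-out pair (purple), and for all peaks away from gene ends in the left-out pair (grey); the dashed line marks 0.5. Left-out pairs lie between 0.567 and 0.647, below all peaks at 1.06 to 1.16.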

How the data were processed

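The deposited table holds raw counts, made by the authors, for 129536 peaks in 8 ATAC-seq libraries, 4 vehicle and 4 sorbitol. Per the submitters' processing notes the tools include Trim Galore 0.6.10, BWA 0.7.17, SAMtools 1.22, Picard and MACS2 2.2.9.1, with build hg38; their order, and whether reads or fragments were counted, is not given in the sources used here. Per the labels' protocols reads were 75 bp paired-end. Starts in the table count from 0 and are printed from 1.

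Gene ends came from the RefSeq table of GRCh38.p14, using 59003 rows placed on their chromosome and leaving out 789 on unplaced, patch or alternate sequences. Strand was known for 46.3% of genes and 79.7% of protein-coding genes. The members, gene lists and comparisons were chosen with earlier results of these data known.

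The model was edgeR 4.0.16's quasi-likelihood test in R 4.3.3, with TMM factors, treatment as the only term and filterByExpr (minimum count 10, minimum total 15), which removed 49 peaks. Benjamini-Hochberg adjustment covered every tested peak (threshold 0.05). Scripts were tested on simulated data. Named peaks were the 10 with the highest vehicle mean, the 10 lowest ratios among those with at least 2 CPM in vehicle, members of the 5 strongest pairs, 3 on each side of the fold limit, those at listed genes, and genes hosting 2 or more; other genes in the text were named after their values had been seen. Intervals cover counting error only. Alternatives were other scalings, DESeq2 1.42.0, other filters, folds and distances, a replicate block and leaving out libraries. 1 item is not reported here.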

Additional observations from a re-analysis of the deposited data

Results flagged for a closer look

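In 68 groups of 4 libraries, those of the named peaks and of similar summaries, 2 held a library that stood apart; about 1 in 20 (3.4 groups) would do so by chance. Both are among the 5 near-identical peaks on chromosome 21. At chr21:6216513-6219357 vehicle library 3 gave 303.4 CPM, while the other 3 gave 257.0 to 264.7 CPM. At chr21:7478591-7481454 sorbitol library 4 gave 131.8 CPM, while the other 3 gave 126.4 to 127.2 CPM. Vehicle library 3 was also the highest vehicle library at the other 4 of these peaks.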

How the results depend on the processing

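The number of peaks that met the choice depended on scaling and thresholds: 682 with TMM factors and 748 with DESeq2 size factors (all 421 kept in both), 1457 at a ratio of at most 0.6, 67 at 0.4 and 137 with a mean of at least 50 counts. Leaving out 1 library gave 464 to 679, the highest without sorbitol replicate 1, and leaving out both libraries of 1 number gave 578 to 725. Using every row of the gene table, chosen after seeing the data, gave 419 and dropped the RPH3AL peak. The share of lost peaks with another within 50 kb was 12.9% with TMM factors, 14.6% with DESeq2 size factors, 21.3% at 0.6, 0% at 0.4, 12.2% with protein-coding ends only, and 4.75% and 12.3% at linking distances of 20 and 100 kb; without 1 library it ran from 7.71% to 11.9%. The share inside a gene ran from 61.3% to 67.2%. The 771 peaks lower at least 2-fold in edgeR became 489 with library totals alone, 1859 with the loess offset and 138 with a mean of at least 50 counts. Other settings gave 652 to 1086, of which DESeq2 gave 803. The median over all non-lost peaks within 50 kb, gene ends included, was −0.30, −0.22 with library totals, −0.39 within 10 kb and −0.25 without chromosome 19; the cause of these shifts was not tested. Library totals moved the median of all tested peaks from 0.01 to 0.09. The 31 peaks named as strongest, lowest in ratio, in the 5 strongest pairs or at listed genes were run over 14 settings. All 434 values kept their direction and stayed past the adjusted threshold, but some fell short of 2-fold. With the loess offset the 5 chromosome 21 copies had log2 fold changes of −0.89 to −0.92. The later ZNF875 start had −0.98 with library totals, −0.95 without vehicle replicate 4 and −0.89 without sorbitol replicate 3. Peaks at the fold limit and those in genes hosting 2 or more, outside these 31, were not run. Same-numbered libraries did not deviate together across peaks (correlations −0.13 to 0.01), which does not show whether they shared a culture or a preparation. A fit with the replicate block gave 786 peaks (744 shared with the 771) and a neighbour median of −0.30. Corrections for GC content were not run, since no genome was used. Depth limits the weaker sites: 67.5% of the lost peaks had a mean under 50 counts.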

Other observations

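Outside the autosomes, 16 of 3896 peaks on the X chromosome and 5 of 751 peaks on unplaced contigs met the same conditions on the counts. The strongest was on Un_GL000195v1, at 393.2 ± 17.5 CPM in vehicle and 194.7 ± 12.2 CPM in sorbitol (SD, n = 4). A peak on 1_KI270713v1_random gave 269.8 ± 24.4 and 130.9 ± 2.30 CPM, levels within the range of the 5 chromosome 21 copies in both groups. Whether they share reads was not tested. On Un_GL000219v1 a peak gave 20.9 ± 0.799 and 6.30 ± 0.869 CPM, a ratio of 0.301.

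Within 20 kb of the first base of an autosome lay 14 peaks away from gene ends. All 14 had a log2 fold change below 0 in edgeR, from −0.11 to −1.38, and 3 were among the 421: chr10:9897-10468, at 26.3 CPM in vehicle and 12.7 CPM in sorbitol, chr2:11517-11829, at 2.12 and 0.854 CPM, and chr4:12013-12336, at 1.80 and 0.754 CPM. The strongest of the 14, on chromosome 5, gave 312.7 CPM in vehicle and 207.2 CPM in sorbitol, a ratio of 0.662. These positions adjoin telomeric repeats, and how reads that fit several places were assigned is not given in the sources used here.

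By vehicle strength, the 10034 weakest peaks away from gene ends held 3 of the 421 and the 10034 strongest held 43, with 62 in the class just below the strongest.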
